A study of Homo sapiens with 12 samples.

Results

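The human mitochondrial genome is a small circular DNA that codes for subunits of the respiratory chain and of ATP synthase, and for the rRNAs and tRNAs with which mitochondria translate them. Its genes were taken here as every gene name beginning with MT-, which gave 37 of the 56537 gene names in the deposited annotation, and FPKM (fragments per kilobase of transcript, scaled to the mapped fragments of each library) were summed per gene name. They comprised 13 mRNAs, 2 rRNAs and 22 tRNAs. The values came from HCT116, an established line of colorectal carcinoma cells, grown in 21% oxygen (0 h) or moved to 1% oxygen (hypoxia) for 1, 2 or 24 h. Each of the 4 time points had 3 biological replicates of the same line in the same medium, and poly(A) RNA was sequenced as strand-specific paired reads, giving 12 libraries. The labels name no engineered allele and no agent besides the oxygen level. The line is a single tumour line in bulk culture, so less RNA per cell and fewer cells holding it cannot be told apart.

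Transcription of the mitochondrial genome runs along both strands and yields long polycistronic RNAs. The heavy-strand transcript carries most genes, whereas MT-ND6 and several tRNAs lie on the other strand, here called light. The tRNAs punctuate the long RNA, and their excision by RNase P and ELAC2 releases the mRNAs and rRNAs. Most mitochondrial mRNAs then receive a short poly(A) tail, which brings them into poly(A) libraries, and SLIRP with LRPPRC protects them from decay. Gene positions were read from a GENCODE annotation on GRCh37, in which 12 of the 13 mRNAs had a tRNA gene within 4 bases of an end.

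Neighbouring genes overlap in places, so fragments there belong to more than 1 gene. The overlap of MT-ATP8 and MT-ATP6 and that of MT-ND4L and MT-ND4 are printed here because the FPKM of these pairs share fragments, with overlapping bases in capitals. They lie on the plus strand of the mitochondrial chromosome of GRCh37, at chrM:8527-8572 (46 bases) and at chrM:10750-10776, where the last 10 and first 10 bases flank an overlap of 7 bases. The third sequence is MT-TS2 (chrM:12207-12265), at 59 bases the shortest of the tRNAs, shown because it is shorter than a sequenced read. The last pair shows how nearly a nuclear copy on chromosome 1 matches a mitochondrial gene: MT-ND2 at chrM:4899-4958 beside its copy MTND2P28 at chr1:565449-565508, plus strand, with the 4 differing bases in capitals.
MT-ATP8/MT-ATP6: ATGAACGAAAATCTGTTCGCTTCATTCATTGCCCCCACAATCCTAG
MT-ND4L/MT-ND4: acctactccaATGCTAAaactaatcgt
MT-TS2: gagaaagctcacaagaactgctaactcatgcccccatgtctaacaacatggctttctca
MT-ND2: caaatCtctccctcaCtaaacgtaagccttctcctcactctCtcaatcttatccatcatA
MTND2P28: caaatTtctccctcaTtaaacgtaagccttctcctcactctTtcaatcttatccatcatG

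The mitochondrial genes did not have a value at every time point. All 13 mRNAs and both rRNAs were listed above 0 in 2 libraries, replicate 1 at 0 h and replicate 1 at 24 h, and at exactly 0 in the other 10. No library at 1 h or 2 h held a value for any of them. The summed FPKM of all mitochondrial transcripts was 38179 in replicate 1 at 0 h and 28517 in replicate 1 at 24 h. All 22 tRNAs, of 59 to 75 bases and 8 of them on the light strand, were at 0 in all 12 libraries.

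The zeros set the mitochondrial genome apart from the rest of the annotation. Among 31561 regions holding a transcript of at least 300 bases, 1 was at 0 in at least 1 library while its median exceeded 100 FPKM over the others, and that region was the mitochondrial genome. The 2 libraries with mitochondrial values were also those with the fewest transcripts above 0, at 100771 and 104051, against 107017 to 119609 in the other 10. As background, Cufflinks can skip a locus that holds too many fragments and then lists its transcripts at 0. Whether that happened here was not tested, and a value of 0 in these files is therefore given as a listing and not as absence of the RNA. The tRNA zeros coincided with length: none of the 1576 transcripts no longer than the longest of these tRNAs, and none of the 4550 transcripts under 100 bases, was above 0 in any library.

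**Figure D1:**
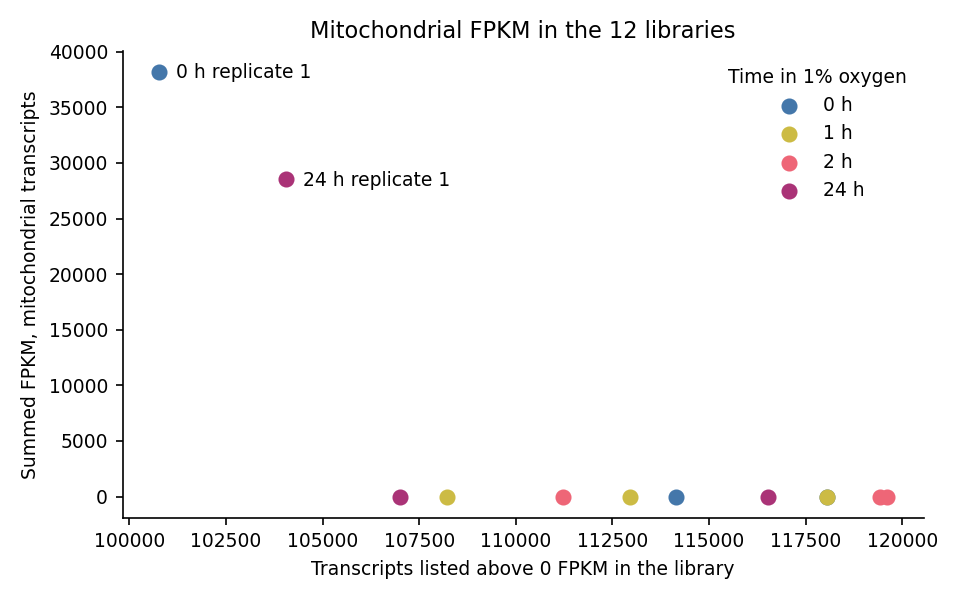
Each point is 1 of the 12 libraries, with the number of transcripts listed above 0 on the x axis, the summed FPKM of all mitochondrial transcripts on the y axis and the time in 1% oxygen as colour. Replicate 1 at 0 h (38179) and replicate 1 at 24 h (28517) lie apart at the left, and the other 10 libraries lie at 0.

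As a result, none of the 37 genes passed the filter of more than 0.5 FPKM in at least 3 libraries, and no test across the time course could be made for them. The comparison below sets replicate 1 at 24 h against replicate 1 at 0 h. It compares 2 libraries and not the 2 conditions, and it has no replicate error and no p-value. For scale, among 1226 other gene names with a mean of at least 100 FPKM the median SD of log2 FPKM between replicates was 0.148, and its 95th percentile 0.425.

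The 13 mRNAs summed to 36003 FPKM at 0 h and 27457 FPKM at 24 h, a ratio of 0.763. Without the whole-genome transcript described below, their sum was 4.96% and 3.58% as large as all FPKM on transcripts of at least 300 bases. These figures are not shares, because MT-ATP8 and MT-ND4L are shorter than that and enter only the sum of the mRNAs. The decrease was uneven between the complexes to which the products belong. Summed FPKM of the complex IV mRNAs was 11141 and 10890, a ratio of 0.977, and that of MT-CYB, the sole member in complex III, 665 and 640, a ratio of 0.963. Complex I mRNAs summed to 11190 and 8581 (ratio 0.767), and complex V mRNAs to 13007 and 7346 (ratio 0.565). MT-ATP8, a short annotation that overlaps MT-ATP6, held most of the complex V sum at 0 h, and MT-ATP6 alone had a ratio of 0.720, close to that of complex I.

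By gene, 4 of the 13 mRNAs were over 2-fold lower at 24 h and none was over 2-fold higher, with a median log2 ratio of -0.26. With the rRNAs the count was 5 of 15. In the same pair of libraries 13.8% of the 15941 gene names past the filter were over 2-fold lower and 12.7% over 2-fold higher, with a median log2 ratio of -0.07. Among the 1226 gene names with a mean of at least 100 FPKM, 14.6% were over 2-fold lower, 5.55% over 2-fold higher, and the median was -0.14. Between replicates of 1 time point, 0.0816% to 3.02% of these 1226 were past 2-fold in either direction.

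Complex I, the NADH dehydrogenase, takes 7 of its subunits from the mitochondrial genome, and their log2 ratios ran from -2.35 to 0.18. MT-ND2 (chrM:4470-5511) was at 1648.5 FPKM at 0 h and 325 FPKM at 24 h, a log2 ratio of -2.34. MT-ND6 (chrM:14149-14673), the only mRNA on the light strand, was at 352 and 68.7 FPKM, a log2 ratio of -2.35, and was the lowest mRNA in the 24 h library. MT-ND1 (chrM:3307-4262) was at 944 and 466 FPKM, a log2 ratio of -1.02 that lies at the 2-fold limit.

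The log2 ratios of MT-ND3, MT-ND4L and MT-ND4 were closer to 0. MT-ND3 (chrM:10059-10404) was at 2478 and 1557 FPKM (log2 ratio -0.67). MT-ND4L (chrM:10470-10766) was at 2351 and 2662 FPKM (log2 ratio 0.18), and MT-ND4 (chrM:10760-12137), with which it overlaps, at 2691 and 2769 FPKM (log2 ratio 0.04). These differences for MT-ND4L and MT-ND4 are of the size of the spread between replicates of other genes.

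MT-ND5 (chrM:12337-14148) depends on what is summed. Its gene name holds the annotated mRNA and also an assembled transcript of 16569 bases that covers the whole mitochondrial genome. That transcript was at 619 FPKM at 0 h and 464 FPKM at 24 h. Estimated as FPKM times annotated length, it held 27.1% and 25.8% of all mitochondrial fragments. The estimate is rough, because fragment counts and effective lengths were not available. The sum over the name was 725 and 733 FPKM, a log2 ratio of 0.02. The annotated mRNA alone was at 106 and 270 FPKM, a log2 ratio of 1.34, which would make it the only mRNA over 2-fold higher.

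Cytochrome b, the product of MT-CYB (chrM:14747-15887), is the catalytic core of complex III, and its mRNA was at 665 and 640 FPKM (log2 ratio -0.05). The mRNAs of the catalytic core of cytochrome c oxidase were among the highest of the 13. MT-CO1 (chrM:5904-7445) was at 3178 and 2953 FPKM (log2 ratio -0.11). MT-CO2 (chrM:7586-8269) was at 3634 and 4332 FPKM (log2 ratio 0.25), and MT-CO3 (chrM:9207-9990) at 4330 and 3605 FPKM (log2 ratio -0.26). None of the 3 was past 2-fold.

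ATP synthase takes 2 membrane subunits from the mitochondrial genome. MT-ATP6 (chrM:8527-9207) was at 4416 and 3180 FPKM (log2 ratio -0.47). MT-ATP8 (chrM:8366-8572), whose mRNA as annotated has 207 bases, was at 8591 and 4166 FPKM (log2 ratio -1.04), the highest value of any mitochondrial gene at 0 h. As background, both are translated from 1 shared RNA, so these values divide its fragments between overlapping annotations, and FPKM of so short a transcript rest on an estimated effective length.

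The rRNAs, which lie next to the start of heavy-strand transcription, were lower than most mRNAs in these poly(A) libraries. MT-RNR1 (chrM:648-1601), of the small ribosomal subunit, was at 544 and 104 FPKM, a log2 ratio of -2.39. MT-RNR2 (chrM:1671-3229), of the large subunit, was at 1632 and 957 FPKM, a log2 ratio of -0.77. In all, 11 of the 15 mRNAs and rRNAs had ratios below 0.

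**Figure D2:**
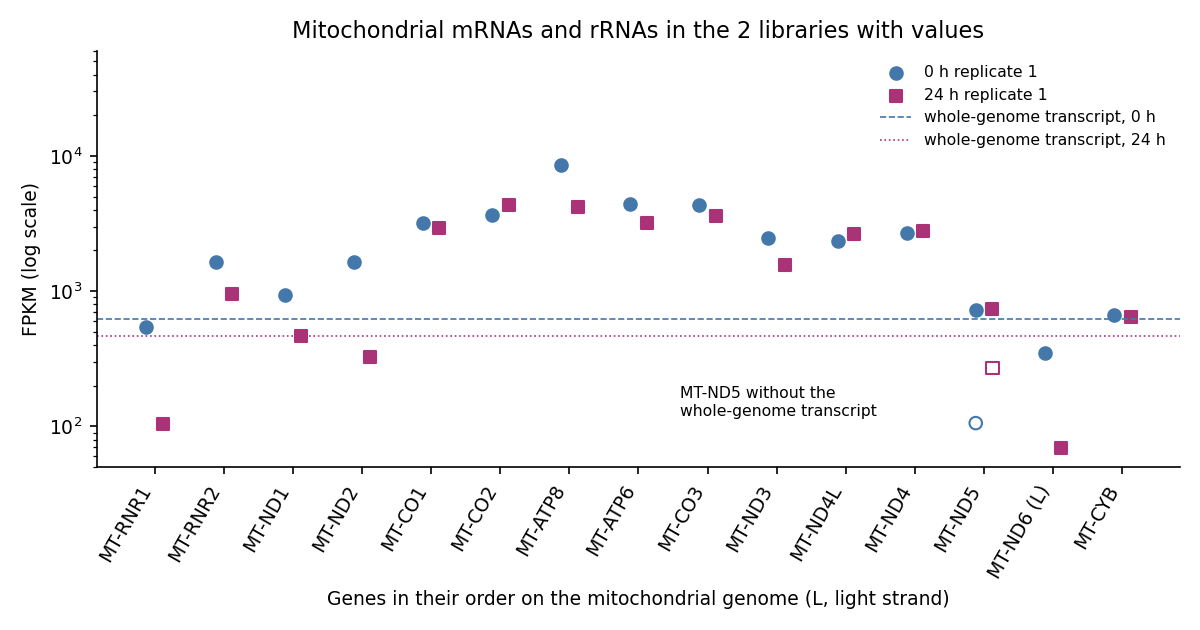
FPKM on a log axis for the 13 mRNAs and 2 rRNAs in genome order, circles for replicate 1 at 0 h and squares for replicate 1 at 24 h, with dashed and dotted lines for the transcript that spans the whole genome (619 and 464 FPKM) and open symbols for MT-ND5 without it. MT-ATP8 is highest at 0 h (8591), and MT-RNR1, MT-ND2 and MT-ND6 show the widest gaps.

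Within each library, the shares of the 13 mRNAs do not depend on scaling. MT-ATP8 held 23.9% of their summed FPKM at 0 h and 15.2% at 24 h, a difference of -8.69 percentage points. The share of MT-ND2 went from 4.58% to 1.18%, and that of MT-ND6 from 0.978% to 0.25%. MT-CO2 went from 10.1% to 15.8%, MT-ND4L from 6.53% to 9.70% and MT-ND4 from 7.47% to 10.1%. In order of level MT-ATP8, MT-ATP6 and MT-CO3 led at 0 h, and MT-CO2, MT-ATP8 and MT-CO3 at 24 h.

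The transcript that spans the whole genome takes fragments from every heavy-strand gene it covers. With its FPKM added to each of these genes, an alternative chosen after the data were seen, 2 of the 13 mRNAs stayed over 2-fold lower, MT-ND2 (log2 ratio -1.52) and MT-ND6 (log2 ratio -2.35, not covered). MT-ATP8 came to -0.99, MT-ND1 to -0.75 and MT-RNR1 to -1.03. The direction of MT-ND4 turned, from 0.04 to -0.03. Scaling bore on the same small ratios: as TPM, which rescales each library to 1 total over all transcripts, MT-ND4L (-0.06), MT-ND4 (-0.20) and MT-ND5 (-0.22) fell below 0 and MT-CO2 stayed above it at 0.02. With median-of-ratios scaling MT-CYB went from -0.05 to 0.04.

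**Figure D3:**
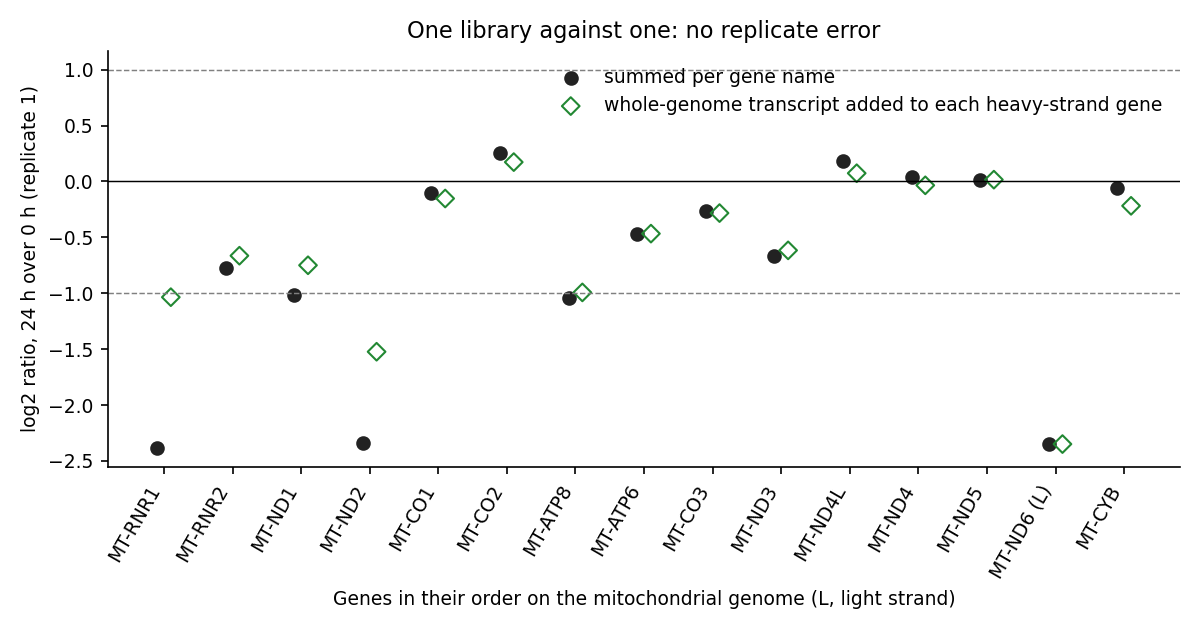
The log2 ratio of replicate 1 at 24 h to replicate 1 at 0 h for each gene in genome order, filled circles for FPKM summed per gene name and open diamonds after adding the transcript that spans the whole genome to each heavy-strand gene, with dashed lines at 2-fold. MT-ND2 and MT-ND6 lie below the lower line either way, while MT-RNR1 moves from -2.39 to -1.03.

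Copies of mitochondrial genes in the nuclear genome offered values in all 12 libraries. A stretch of chromosome 1 holds 7 such copies, MTND1P23, MTND2P28, MTCO1P12, MTCO2P12, MTATP8P1, MTATP6P1 and MTCO3P12, of which MTCO1P12, MTCO2P12, MTATP8P1 and MTCO3P12 were added by their position after values had been seen. They matched their mitochondrial genes over 97.58% to 98.70% of aligned bases. MTND2P28 (chr1:565020-566063) differed from MT-ND2 at 17 of 1044 aligned bases, and its longest identical run was 266 bases. Fragments of the mitochondrial RNA and of a copy therefore cannot always be told apart, and whether the FPKM of the copies came from nuclear or mitochondrial RNA was not tested. MTCO2P12 and MTATP8P1 were at 0 in all 12 libraries. The planned rule, a pattern of gene names, found 188 names in all, of which 8 passed the filter. Of those 8, 3 were above 10 FPKM in every library, MTND1P23, MTND2P28 and MTATP6P1. The others, MTND4LP1, MTND4P12, MTND4P24, MTRNR2L12 and MTRNR2L9, reached at most 6.0 FPKM and are not counted here.

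In the 2 libraries where both could be read, copy and mitochondrial gene had these ratios. MTND1P23 gave a log2 ratio of -1.01 beside -1.02 for MT-ND1, and MTND2P28 -1.57 beside -2.34 for MT-ND2. MTCO1P12 gave -0.08 beside -0.11 for MT-CO1, MTATP6P1 -0.34 beside -0.47 for MT-ATP6, and MTCO3P12 -0.34 beside -0.26 for MT-CO3. The copy was below the gene in both libraries. MTCO3P12 had 0.00562 times the FPKM of its gene at 0 h and 0.0053 times at 24 h, the lowest ratios, and MTND2P28 had 0.342 and 0.583 times, the highest.

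Across the time course, 1 of the 5 copies on chromosome 1 past the filter fell at 24 h, 1 rose and 3 did not pass (limma on log2(FPKM + 0.5), adjusted p under 0.05 over all gene names). Of all gene names tested, 22.9% rose and 31.2% fell in this comparison. MTND2P28 was at 563, 506 and 505 FPKM at 0 h, 496, 523 and 361 at 1 h, 631, 572 and 332 at 2 h, and 189, 185 and 241 at 24 h. Every library at 24 h lay below every library at the other times, as was so for 25.4% of all gene names tested, and 30.2% lay wholly below 2 h. Its log2 fold change at 24 h was -1.36 (SE 0.22, limma adjusted p 0.000217), from 525 ± 33.1 to 205 ± 31.2 FPKM (SD, n = 3 each). With any 1 library of either group left out, the 2 with mitochondrial values included, it was between -1.48 and -1.29.

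MTCO1P12, listed in the files under the name hsa-mir-6723, went the other way. It was at 417, 370 and 311 FPKM at 0 h, 475, 459 and 295 at 1 h, 543, 626 and 378 at 2 h, and 394, 702 and 760 at 24 h. The range at 24 h overlaps that at 0 h through replicate 1. Its log2 fold change was 0.71 (SE 0.27, limma adjusted p 0.0383), and -0.16 as TPM. Leaving out any 1 of 4 libraries ended the call, with limma adjusted p of 0.0753 without replicate 2 at 0 h, 0.118 without replicate 3 at 0 h, 0.124 without replicate 2 at 24 h and 0.135 without replicate 3 at 24 h.

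The other copies did not pass. MTATP6P1, the highest of them, was at 1169, 990 and 1015 FPKM at 0 h and at 921, 1272 and 1366 FPKM at 24 h (log2 fold change 0.15, SE 0.21, limma adjusted p 0.585). With 1 library left out its log2 fold change ran from 0.037, without replicate 3 at 24 h, to 0.32, without replicate 1 at 24 h. MTND1P23 was at 73.1, 52.0 and 46.4 FPKM at 0 h and at 36.1, 38.7 and 38.5 FPKM at 24 h (log2 fold change -0.56, SE 0.35, limma adjusted p 0.197), and without replicate 1 at 0 h its log2 fold change was -0.38. As TPM its log2 fold change was -1.40 with limma adjusted p 0.00704, which passes, and in a fit of the 0 h and 24 h libraries alone the limma adjusted p was 0.0231. MTCO3P12, listed as RP5-857K21.11, went from 18.9 ± 7.14 to 18.6 ± 5.04 FPKM (SD, n = 3 each). At 1 h and at 2 h none of the 5 copies passed limma's test, and none had an unadjusted p under 0.05. An unadjusted limma p under 0.05 was found for 681 of all 15941 gene names at 1 h and 2374 at 2 h.

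**Figure D4:**
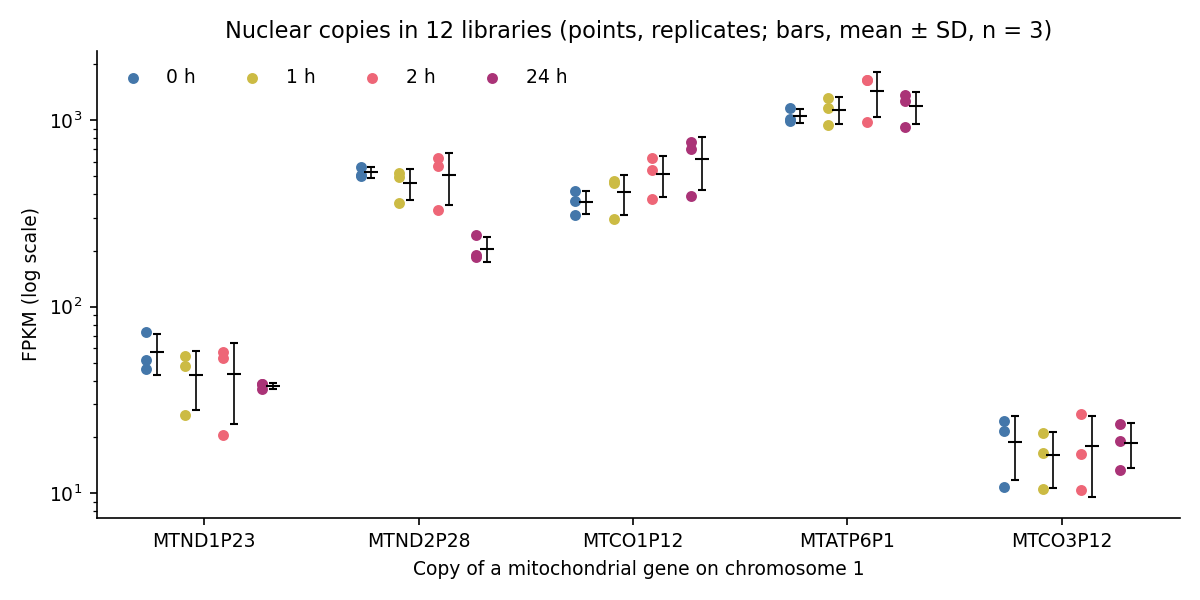
FPKM on a log axis of the 5 copies on chromosome 1 that passed the filter, with 1 point per library, colours for the time in 1% oxygen and black bars for the mean ± SD of 3 libraries. MTND2P28 at 24 h (189, 185 and 241) lies below all its other libraries.

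The nuclear genes whose products maintain and transcribe the mitochondrial genome and process or degrade its RNA could be tested in all libraries. Of 37 such genes 31 fell at 24 h, 2 rose and 4 did not pass, with a median log2 fold change of -1.08 against -0.09 over all gene names. The background was 31.2% lower and 22.9% higher. As TPM, which moves the median of all gene names to -0.713, 32 were lower and none higher, beside 42.7% and 3.30% of all gene names. With any 1 library left out, 31 to 33 of the genes passed. The list includes 6 genes of mitochondrial DNA replication and upkeep (POLG, POLG2, C10orf2, SSBP1, MGME1 and RNASEH1), counted apart after the values were seen, of which 4 fell and 2 did not pass. Of the other 31 genes 27 fell, 2 rose and 2 did not pass. By the study's limits, over 2-fold with adjusted p under 0.01, 20 of the 37 were lower and none higher, where 10.5% of all gene names were lower and 8.36% higher. At 1 h and at 2 h none of the 37 passed limma's test, where 1 of the 15941 gene names (0.00627%) passed at 1 h and 42 (0.263%) at 2 h. An unadjusted limma p under 0.05 was found for 1 of the 37 at 1 h and 4 at 2 h, beside 681 and 2374 of the 15941 gene names. Against 2 h, 31 were lower at 24 h and 4 higher, with 28.2% and 20.8% of all gene names. With any 1 library at 2 h or 24 h left out, 29 to 31 of the genes passed against 2 h. These comparisons depended on scaling: as TPM 29 of the 37 were lower at 2 h than at 0 h, beside 53.2% of all gene names, and 3 were lower and none higher at 24 h than at 2 h, beside 1.59% and 6.25%.

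The genes named for the size of their change included 4 whose products bind or process mitochondrial RNA. TRMT10C, a subunit of mitochondrial RNase P, was at 62.5, 47.8 and 53.6 FPKM at 0 h and at 13.8, 16.2 and 13.5 FPKM at 24 h (log2 fold change -1.87, SE 0.16, limma adjusted p 2.24e-06). HSD17B10, a second subunit, went from 80.7 ± 7.14 to 24.8 ± 3.57 FPKM (SD, n = 3 each; log2 fold change -1.69). FASTKD2, an RNA-binding protein of mitochondrial RNA granules, went from 29.0 ± 2.98 to 9.15 ± 1.10 FPKM (log2 fold change -1.61). PTCD2, a pentatricopeptide repeat protein, went from 8.68 ± 1.36 to 2.77 ± 1.46 FPKM (log2 fold change -1.57). For each of these 4 genes, which were chosen for their decrease, the groups did not overlap, as was so in this direction for 34.0% of all gene names tested.

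In transcription the members were divided. TFAM, which packages mitochondrial DNA and activates its promoters, was at 60.8, 55.1 and 59.5 FPKM at 0 h and at 22.9, 27.5 and 28.0 FPKM at 24 h (log2 fold change -1.15, SE 0.11, limma adjusted p 4.21e-06). TEFM, the elongation factor, went from 15.3 ± 2.57 to 4.52 ± 0.70 FPKM (log2 fold change -1.66). POLRMT, the RNA polymerase itself, was at 34.6, 34.7 and 31.3 FPKM at 0 h and at 33.7, 32.7 and 39.4 FPKM at 24 h, and did not pass (log2 fold change 0.07, SE 0.10, limma adjusted p 0.610). The 2 that rose were TOP1MT, the mitochondrial topoisomerase (log2 fold change 0.55), and TFB1M, an rRNA methyltransferase (log2 fold change 0.37), which were named after their values were seen. As TPM, POLRMT (-0.77), TOP1MT (-0.30) and TFB1M (-0.46) had values below 0, none of which was lower than the median of all gene names by more than 0.1 on that scale.

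The complex that stabilises mitochondrial mRNAs was also uneven. SLIRP was at 400, 371 and 353 FPKM at 0 h and at 136, 145 and 123 FPKM at 24 h (log2 fold change -1.48, SE 0.15, limma adjusted p 6.16e-06). Its partner LRPPRC was at 102, 103 and 100 FPKM at 0 h and at 75.5, 87.2 and 95.9 FPKM at 24 h (log2 fold change -0.25, SE 0.10, limma adjusted p 0.0484). That call was lost under 9 of 17 alternatives. With any of replicates 1, 2 or 3 at 0 h or replicates 1 or 2 at 24 h left out, the limma adjusted p was 0.0787 to 0.168, and without replicate 1 at 24 h the log2 fold change was -0.15. It was also lost with the replicate block (limma adjusted p 0.0514), with no filter (0.0550), in a fit of the 0 h and 24 h libraries alone (0.101) and with median-of-ratios scaling (-0.13, limma adjusted p 0.313).

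**Figure D5:**
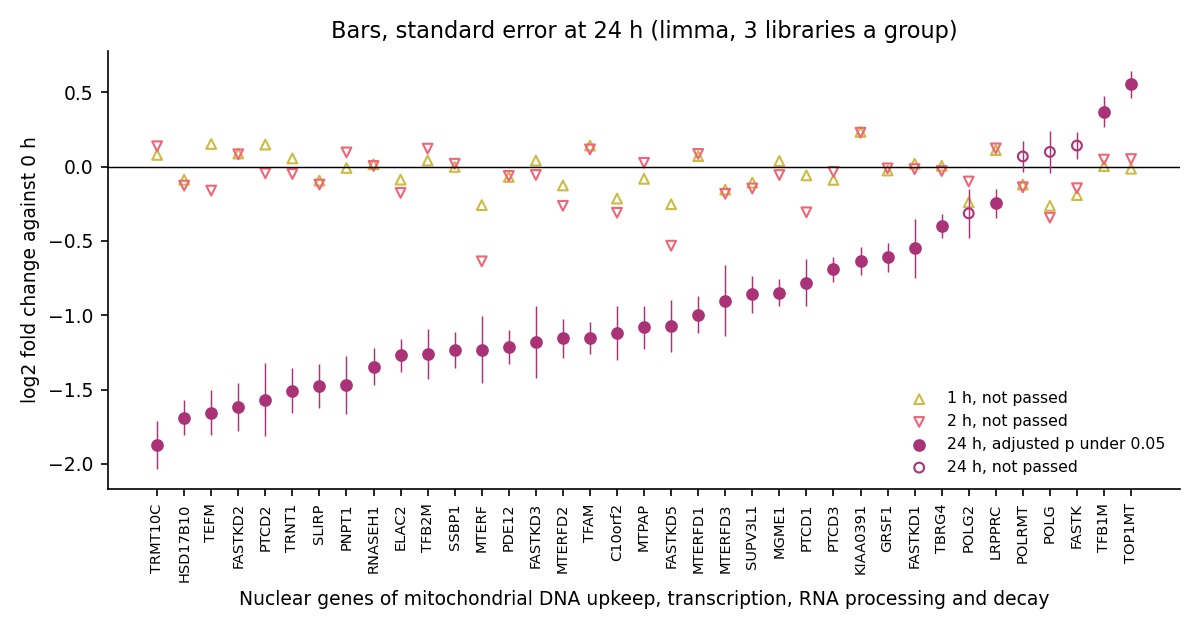
The log2 fold change against 0 h of the 37 nuclear genes at 1 h (upward triangles), 2 h (downward triangles) and 24 h (circles with bars for the standard error), ordered by the value at 24 h and filled where limma's adjusted p was under 0.05. At 24 h 31 circles are filled below 0 and 2 above it, and no triangle is filled.

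Nuclear genes also code for the partners of the mitochondrial products. Of 26 nuclear-encoded subunits of complexes I, III, IV and V, 10 fell and 3 rose at 24 h, and none was past the study's limits. Of all gene names 31.2% fell and 22.9% rose, and 10.5% and 8.36% were past those limits. With median-of-ratios scaling 8 fell and 4 rose, beside 26.9% and 26.7% of all gene names, and as TPM 13 fell and none rose, beside 42.7% and 3.30%. In complex V 6 of 7 fell, among them ATP5F1 of the peripheral stalk (from 264 ± 7.04 to 157 ± 14.3 FPKM, log2 fold change -0.75) and ATP5E of the central stalk (log2 fold change -0.50). In complex I 3 of 7 fell, with NDUFS3 at -0.83. In complex IV 1 of 8 passed and it rose, COX6C at 0.42 (-0.45 as TPM), named after its value was seen. Complex III had UQCRC1 higher (0.60, or -0.27 as TPM) and UQCRFS1, the Rieske protein, lower (-0.57), with 2 of 4 risen and 1 fallen. At 1 h and at 2 h none of the 26 passed limma's test and none had an unadjusted p under 0.05. Of the 15941 gene names, 681 at 1 h and 2374 at 2 h had such an unadjusted limma p.

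Complex II, which has no subunit from the mitochondrial genome, had 2 of 4 subunits lower, beside 31.2% of all gene names. SDHD had a log2 fold change of -0.44 and SDHB of -0.33. The call of SDHB (limma adjusted p 0.0323) was lost without any of the replicates at 0 h or without replicate 3 at 24 h, at 0.0624, 0.0910, 0.0643 and 0.115, and its log2 fold change without the last was -0.20. It was also lost with no filter (limma adjusted p 0.0558), in a fit of the 0 h and 24 h libraries alone (0.0642) and with median-of-ratios scaling (0.112). Of genes known to adjust the respiratory chain in hypoxia, LONP1, a matrix protease, rose (log2 fold change 0.35, or -0.51 as TPM) and NDUFA4 fell (-0.54), whereas NDUFA4L2 and COX4I2 did not pass the filter.

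The labels were checked against marker genes. Of 6 hypoxia genes examined, NDRG1, ANKRD37, EGLN3, VEGFA and PDK1 rose at 24 h, with log2 fold changes of 1.94 to 5.57. CA9 was at 0.025, 0 and 0.14 FPKM at 0 h and at 4.36, 4.19 and 3.73 FPKM at 24 h, and passed the filter only through the 24 h group, so its call carries no information. Of 10 epithelial and intestinal markers 7 passed the filter, while VIL1, CDX1 and CEACAM5 did not. At 24 h CDH1 (log2 fold change 1.71), KRT19 (0.99) and CLDN7 (0.62) rose and CDX2 (-0.42) fell. Of 10 markers of fibroblasts, leukocytes and endothelium 1 passed the filter, COL1A1, which rose (log2 fold change 1.49) from a mean of 1.6 to 5.6 FPKM. As TPM its log2 fold change was 0.65 with limma adjusted p 0.0633, which does not pass. Its part in the other results was not tested. Pearson correlations of log2 FPKM between replicates were 0.981 to 0.987 at 0 h and 0.964 to 0.978 at 24 h.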

How the data were processed

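Poly(A) RNA of 12 HCT116 libraries was sequenced by the authors as strand-specific paired reads, aligned to hg19 with MapSplice and assembled with Cufflinks and Cuffmerge against Ensembl. The deposited values are FPKM per assembled transcript and library, made by the authors with Cufflinks, and the deposited annotation gives transcript length in bases, class and gene name. Scaling between libraries, and whether skipped loci enter the fragment total, are not given in the sources used here. FPKM hold no counts, so depth per gene is unknown. For the tests, transcripts of the same strand above 0.5 FPKM in at least 3 libraries were kept, and their FPKM were summed per gene name (15941 names). The mitochondrial genes, which hold no such transcript, were summed over all their transcripts. For the kept names, log2(FPKM + 0.5) was fitted with limma 3.58.1 over 12 libraries in 4 groups, with Benjamini-Hochberg adjustment. Fold changes are on that scale and understate those of low genes. Genes whose value is 0 in 10 libraries entered no test, contrary to the planned design. Data were simulated for 15941 genes, 200 of them changed at 24 h by a log2 fold change of 1.5 in either direction. The test returned 93.5% of the 200 with 7 false calls. Smaller changes were not simulated, so these figures do not apply to them. In the data 54.1% of gene names were called at 24 h against 0 h, many more than were changed in the simulation. Members and lists were chosen with earlier results of these data known. All mitochondrial mRNAs and rRNAs were to be named, from each list POLRMT, TFAM, LRPPRC, SLIRP and up to 5 genes of largest change at 24 h with adjusted p under 0.05, and the 3 highest nuclear copies. Sequences were read from GRCh37, whose mitochondrial chromosome of 16569 bases has the length given in the files. Deviations from the group means of same-numbered libraries correlated on average at 0.15 (-0.06 to 0.42, 18 pairs) and those of other numbers at -0.07 (36 pairs). Every pair exceeded 0.1 between 0 h and 2 h (0.113 to 0.341) and between 1 h and 2 h (0.112 to 0.417), where the numbers were taken as pairing, but not between 24 h and 0 h (0.0176 to 0.242) or 2 h (0.00868 to 0.142). Alternatives comprised scaling, pseudocount, filter, transcript class, a replicate block and leaving out each library.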

Additional observations from a re-analysis of the deposited data

Results flagged for a closer look

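The copy MTND2P28 differed between the late and the early time point in hypoxia. Its log2 fold change at 24 h against 2 h was -1.27 (SE 0.22, limma adjusted p 0.000425), and all 3 libraries at 24 h were below all 3 at 2 h, as for 30.2% of all gene names tested. Scaled to TPM it was -1.05 with limma adjusted p 0.192. Groups of 3 libraries are too small for the test for a library far from the others.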

How the results depend on the processing

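No mitochondrial gene could be tested, so that no alternative bears on the stability of a call among them, and leaving out replicate 1 at 0 h or at 24 h leaves no ratio. The ratio of the summed mRNAs (0.763) became 0.647 as TPM. The count of 5 mRNAs and rRNAs over 2-fold lower became 6 as TPM, 3 with median-of-ratios scaling and 3 with the transcript spanning the whole genome added, and 1 rather than 0 was over 2-fold higher with annotated transcripts alone, where the share of MT-ND5 rose by 0.700 percentage points in place of 0.657. The cause was not tested. TPM shifted the median log2 fold change of all gene names at 24 h to -0.713, and TPM without the transcripts shorter than 300 bases to -0.179. Under TPM the calls at 2 h became 29 for the machinery of mitochondrial DNA and RNA, 14 for nuclear-encoded subunits and 3 for copies, all lower, where 53.2% of all gene names were lower, and at 24 h against 2 h 3, 0 and 0. It also turned MTATP6P1 (-0.73), MTCO1P12 (hsa-mir-6723, -0.16), MTCO3P12 (RP5-857K21.11, -0.78), POLRMT (-0.77), UQCRC1 (-0.27) and LONP1 (-0.51). TPM without those short transcripts turned MTCO3P12 (-0.066) and POLRMT (-0.024), and left 1 copy called at 24 h, as did the fit with no filter. Leaving out each library gave 1 to 2 calls among copies at 24 h against 0 h and 1 to 2 against 2 h. It turned the values, none of which had passed, of MTCO3P12 (from -0.32 without replicate 3 at 0 h to 0.24, with -0.010 and -0.15 without replicates 1 and 2 at 24 h), of POLRMT (from -0.013 without replicate 3 at 24 h to 0.12) and of MTND2P28 at 2 h (0.20 without replicate 3 at 2 h). MTND2P28 at 24 h against 0 h kept its call under all 17 alternatives (-2.23 to -1.25). In the machinery 31 to 33 genes passed at 24 h against 0 h with any library left out, and 29 to 31 against 2 h. Same-numbered libraries of 24 h and of the other times were not paired by their deviations; a replicate block gave 32 calls in the machinery, 16 in nuclear-encoded subunits and 2 among copies at 24 h. LRPPRC lost its call there, and at 2 h against 0 h the block left every count at 0.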
